A study of Mus musculus with 2 samples.

Results

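The annexins and their S100 partner S100a10 were followed in CT26, a mouse colon carcinoma cell line, with and without forced expression of Oct4 and SOX2. The members were the 10 genes Anxa1, Anxa2, Anxa3, Anxa4, Anxa5, Anxa6, Anxa7, Anxa8, Anxa11 and S100a10, taken by symbol from a table of 54532 genes, and all 10 were found. The Oct4/SOX2 cells were given lentivirus that expresses mouse Oct4 (encoded by Pou5f1) together with human SOX2, and their label calls them dedifferentiated. The control, or empty-vector, cells have the genotype label wild type and were given lentivirus with no insert. Both were grown for 4 days in the same medium with serum. Each group had a single library without replicates, so every difference below is between these 2 libraries and has no replicate check. How many clones or integrations each culture held is not given in the sources used here.

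Annexins are proteins that bind acidic phospholipids on the inner face of membranes when calcium rises. They share a conserved core and differ in an N-terminal tail, through which several of them bind an S100 protein. S100a10, also called p11, is an S100 protein that no longer binds calcium and pairs with annexin A2 in a complex that links membranes to the actin cortex and gathers plasminogen at the cell surface. Annexin A1 was first known as a glucocorticoid-induced inhibitor of phospholipase A2, and it is used in the gut as a marker of regenerating epithelium.

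The pairing of annexins with S100 proteins runs through the tail, so the coding sequences of these parts are shown, with the start codon in capitals. For Anxa1 and Anxa2 these are the first 78 coding bases of the transcript marked as principal in GENCODE M21. For S100a10 it is the whole coding sequence of 291 bases without the stop codon.
Anxa1: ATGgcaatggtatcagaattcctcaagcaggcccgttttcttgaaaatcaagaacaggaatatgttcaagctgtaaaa
Anxa2: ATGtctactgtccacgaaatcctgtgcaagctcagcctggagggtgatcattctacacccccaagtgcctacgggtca
S100a10: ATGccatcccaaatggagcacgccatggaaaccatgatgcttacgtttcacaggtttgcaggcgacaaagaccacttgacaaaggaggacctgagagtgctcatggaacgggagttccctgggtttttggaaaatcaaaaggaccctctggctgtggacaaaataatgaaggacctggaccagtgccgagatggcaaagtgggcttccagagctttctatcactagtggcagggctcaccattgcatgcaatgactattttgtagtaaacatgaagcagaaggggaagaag

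Reads assigned to genes numbered 32262408 for the empty-vector cells and 31521115 for the Oct4/SOX2 cells. Pou5f1 was listed at 0 FPKM in empty-vector cells and at 173 FPKM in Oct4/SOX2 cells. Mouse Sox2 was at 14.1 and 23.3 FPKM, on which reads of the human transgene may also fall. Of 12 epithelial markers 2 reached 1 FPKM, Krt18 and Krt20, while the defining cadherin Cdh1 had 0 reads in both libraries and Epcam 1 and 2 reads. All 8 mesenchymal markers reached 1 FPKM, and their summed level was 1258 FPKM in empty-vector cells and 1849 FPKM in Oct4/SOX2 cells, a difference whose part in the annexin values was not tested. Of these markers, Vim (599 and 966 FPKM) and Col1a2 (185 and 306 FPKM) gave most of the difference in the sum. Twist1 (40.1 and 97.6 FPKM) was more than 2-fold higher in Oct4/SOX2 cells. Col1a1 (62.1 and 39.99 FPKM) and Sparc (81.6 and 68.5 FPKM) were lower there. The 8 leukocyte markers summed to 0.0530 and 0.103 FPKM and the 3 endothelial markers to 0.00694 and 0.00695 FPKM. In bulk RNA, fewer cells that express a gene and less of its RNA per cell cannot be told apart.

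The annexin set split. Anxa1, Anxa2, S100a10 and Anxa7 were higher in the Oct4/SOX2 library than in the control library, and Anxa3, Anxa4, Anxa5, Anxa8 and Anxa11 were lower. Anxa6 stayed under 1 FPKM in both libraries and was not counted as measured. By the size rule, which asks for at least 2-fold on the log2 ratio of FPKM + 1, Anxa1 was higher and no member was lower among the 9 measured. Over all 12401 genes measured, 2.42% were at least 2-fold higher and 1.85% at least 2-fold lower. The count of 1 member in 9 is too small to set apart from that background.

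**Figure D1:**
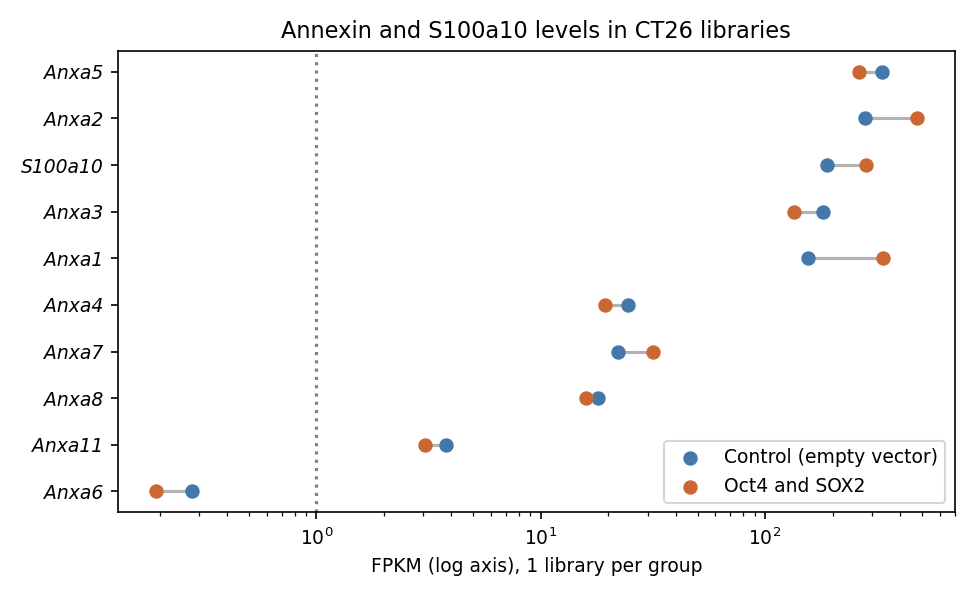
FPKM of each member (log axis) in the control library (blue) and the Oct4/SOX2 library (orange), 1 library per group. The dotted line is 1 FPKM. Anxa1, Anxa2, S100a10 and Anxa7 lie to the right of their control value, and Anxa6 lies under the line in both libraries.

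Annexin A1 showed the greatest difference of the members. Anxa1 (ENSMUSG00000024659) lies on chromosome 19 from 20373428 to 20390944 on the minus strand of GRCm38. Its principal transcript has 13 exons with 1038 coding bases and 636 untranslated ones. The gene stood at 156 FPKM (12998 reads) in empty-vector cells and at 335 FPKM (27831 reads) in Oct4/SOX2 cells. It was 2.14-fold higher, with a 95% counting interval of 2.10 to 2.19, which lies wholly above 2-fold. By FPKM it went from rank 260 to rank 87 of all genes in the table. Its log2 ratio of 1.10 was the 235th highest of the genes measured. Among the 479 genes with at least 100 FPKM in a library, a threshold chosen after the data were seen, 8 genes or 1.67% were at least 2-fold higher, and Anxa1 was among them. At least 2-fold lower were 3.13% of these genes and no member.

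Annexin A2 and its partner S100a10 were both higher, by less than 2-fold. Anxa2 (ENSMUSG00000032231), on the plus strand of chromosome 9 from 69453620 to 69491795, stood at 279.5 FPKM in empty-vector cells and at 475 FPKM in Oct4/SOX2 cells. That is 1.70-fold higher (1.68 to 1.72), from 33286 and 56416 reads, and Anxa2 was the most abundant annexin transcript of the Oct4/SOX2 library, at rank 47 of all genes. S100a10 (ENSMUSG00000041959), on the plus strand of chromosome 3 from 93555080 to 93564643, stood at 189 FPKM and 281 FPKM. It was 1.49-fold higher (1.45 to 1.53), from 7295 and 10846 reads. The counting intervals of the Anxa2 and S100a10 folds do not overlap.

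The products of Anxa2 and S100a10 join in equal numbers in their complex. FPKM, which is per gene length, allows their transcript levels to be set side by side as far as the deposited lengths fit the transcripts made. Protein was not measured, so the ratios below are of transcripts and not of the complex. The ratio of the S100a10 level to the Anxa2 level was 0.675 (counting interval 0.658 to 0.692) in empty-vector cells and 0.592 (0.580 to 0.604) in Oct4/SOX2 cells. Anxa2 was above S100a10 in both libraries, and by more in the Oct4/SOX2 library. The size of the ratio rests on the length used: divided by principal transcript length, of 685 bases for S100a10 and 1447 for Anxa2, it was 0.463 and 0.406, and the plain read ratios were 0.219 and 0.192. The ratio of the Anxa1 level to the Anxa2 level was 0.559 (0.547 to 0.570) in empty-vector cells and 0.706 (0.696 to 0.716) in Oct4/SOX2 cells.

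Annexin A7, or synexin, takes part in the fusion of secretory granules and binds the calcium sensor sorcin, the product of Sri. Anxa7 (ENSMUSG00000021814) lies on the minus strand of chromosome 14 from 20455260 to 20480133. It stood at 22.0 FPKM in empty-vector cells and at 31.7 FPKM in Oct4/SOX2 cells, 1.44-fold higher (1.38 to 1.497). Per length, Anxa7 was far less abundant than Anxa2 in each library.

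The annexins with lower levels in Oct4/SOX2 cells had smaller differences. Annexin A5, known for its binding to phosphatidylserine on dying cells, had the highest FPKM of the annexins in the control. That rank rests on the deposited gene lengths, since Anxa5 had 18913 reads there against 33286 for Anxa2 and 21147 for Anxa3. Anxa5 (ENSMUSG00000027712; chromosome 3, 36448923 to 36475894, minus strand) stood at 333 FPKM in empty-vector cells and at 262 FPKM in Oct4/SOX2 cells, 1.27-fold lower (1.25 to 1.30). Anxa3 (ENSMUSG00000029484; chromosome 5, 96793339 to 96845966, plus strand) stood at 182 and 134 FPKM. It was 1.36-fold lower (1.33 to 1.39), the greatest difference downwards among the measured members.

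Anxa4, which can aggregate vesicles and is abundant in secretory epithelia, was at 24.4 FPKM in empty-vector cells and 19.4 FPKM in Oct4/SOX2 cells, 1.26-fold lower (1.20 to 1.32). Anxa8, first isolated as a vascular anticoagulant protein, was at 18.1 and 15.96 FPKM, 1.13-fold lower (1.04 to 1.24). The Anxa8 interval comes close to 1, so its difference is barely above counting error. Anxa11, whose product binds the S100 protein calcyclin and carries RNA granules along with lysosomes, was at 3.80 and 3.05 FPKM, 1.24-fold lower (1.09 to 1.42), from 501 and 402 reads. Anxa4 (ENSMUSG00000029994) lies on chromosome 6 from 86736840 to 86793584, Anxa8 (ENSMUSG00000021950) on chromosome 14 from 34085981 to 34100571 and Anxa11 (ENSMUSG00000021866) on chromosome 14 from 25842156 to 25886804.

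Anxa6, whose principal transcript has 26 exons and 2019 coding bases, was nearly silent. It had 26 reads in empty-vector cells and 18 in Oct4/SOX2 cells, or 0.278 and 0.193 FPKM. The ratio of 0.694 has a counting interval of 0.358 to 1.31, so no difference was detectable at this depth. Anxa6 (ENSMUSG00000018340) lies on chromosome 11 from 54979108 to 55033445.

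**Figure D2:**
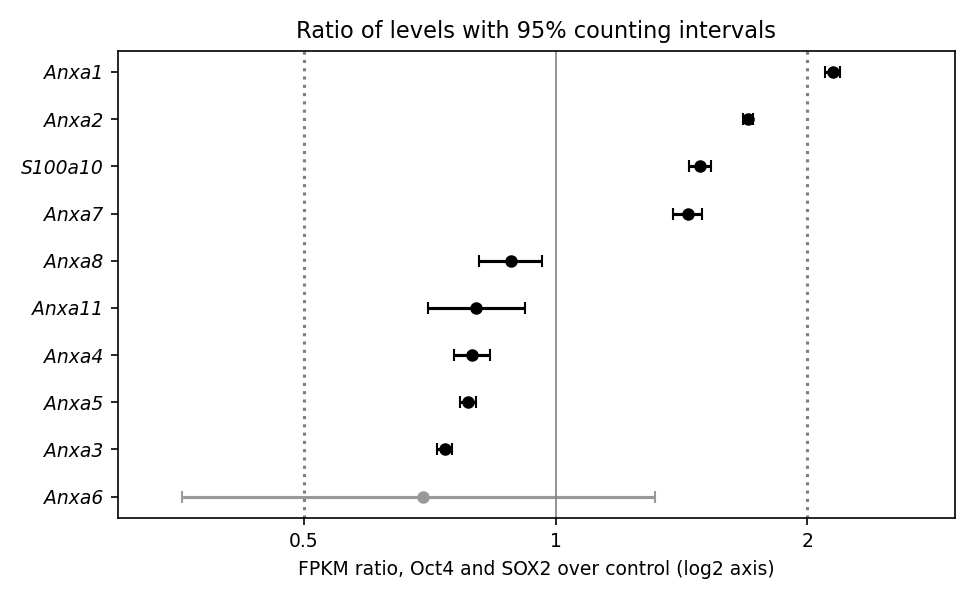
Plain FPKM ratio of each member, Oct4 and SOX2 over control (log2 axis), with exact 95% counting intervals as bars. The solid line marks equal levels, the dotted lines 2-fold either way, and grey marks Anxa6, which was not measured. Of the 9 measured members, 4 lie to the right of the solid line and 5 to the left, and the Anxa1 interval of 2.10 to 2.19 lies beyond 2-fold.

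Of the 9 measured members 4 had a log2 ratio above 0 and 5 below. Over all genes measured 48.3% were above 0 and 51.7% below, so the split of signs was near the background. The members' median log2 ratio was -0.17, against -0.01 over all genes measured, and it was 0.17 with a filter of 5 FPKM, which leaves out Anxa11. No measured member lay between -0.17 and 0.51, the values of Anxa8 and Anxa7. That range was set by the members' own values, and the median of all genes measured lies inside it. Among the 5 members with at least 100 FPKM in a library, Anxa1, Anxa2 and S100a10 were above 0 and Anxa3 and Anxa5 below. Of all genes at that level, a threshold chosen after the data were seen, 38.8% were above 0 and 61.2% below. The 5 members are too few to set apart from those shares.

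**Figure D3:**
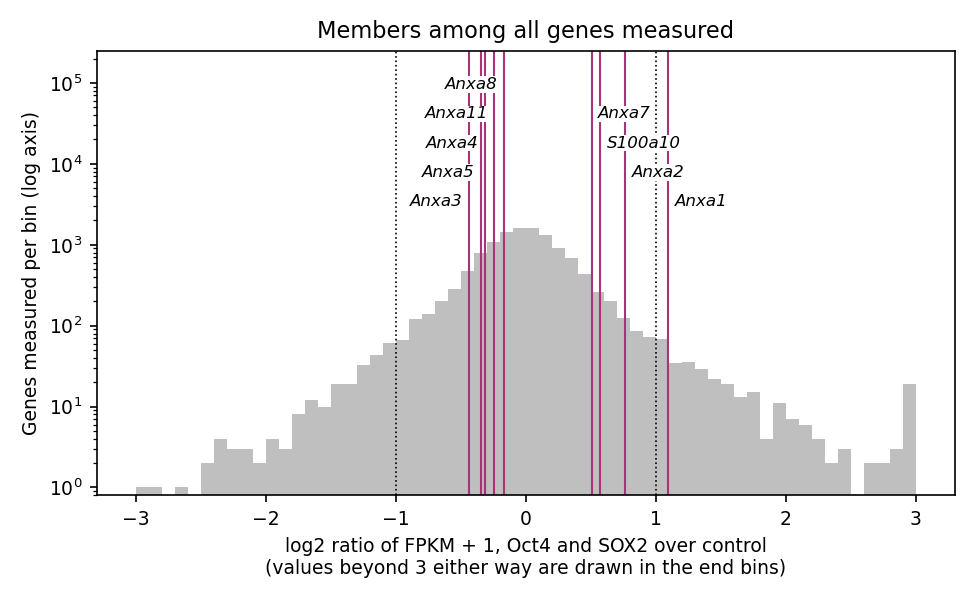
Number of genes per bin (log axis) by log2 ratio of FPKM + 1 for the 12401 genes measured, with the 9 measured members as labelled lines and 2-fold either way dotted. Anxa1 lies just past the upper dotted line at 1.10, and Anxa3, the lowest member, lies at -0.44.

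The make-up of annexin transcripts therefore differed between the libraries. Summed over the 12 annexin genes in the table, the level was 1023 FPKM in empty-vector cells and 1281 FPKM in Oct4/SOX2 cells. Anxa5 and Anxa3 together held 50.4% of it in empty-vector cells and 30.9% in Oct4/SOX2 cells. Anxa2 and Anxa1 together held 42.6% and 63.2%. Divided instead by principal transcript length, an alternative chosen after the data were seen and run on the 9 member annexins, these shares were 41.0% and 23.4% for Anxa5 with Anxa3, and 52.1% and 71.1% for Anxa2 with Anxa1. A change of length scales a gene alike in both libraries and leaves its fold as it was. The kept direction of the shift is therefore no separate check. The shares within a library depended on the length. The order by FPKM in empty-vector cells was Anxa5, Anxa2, Anxa3 and Anxa1, and in Oct4/SOX2 cells it was Anxa2, Anxa1, Anxa5 and Anxa3. By principal transcript length it was Anxa2, Anxa3, Anxa5 and Anxa1 in empty-vector cells and Anxa2, Anxa1, Anxa3 and Anxa5 in Oct4/SOX2 cells. The FPKM ratio of the Anxa5 level to the Anxa2 level was 1.19 (1.17 to 1.21) in empty-vector cells and 0.552 (0.542 to 0.562) in Oct4/SOX2 cells. By principal transcript length it was 0.475 and 0.220, below 1 in both libraries.

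**Figure D4:**
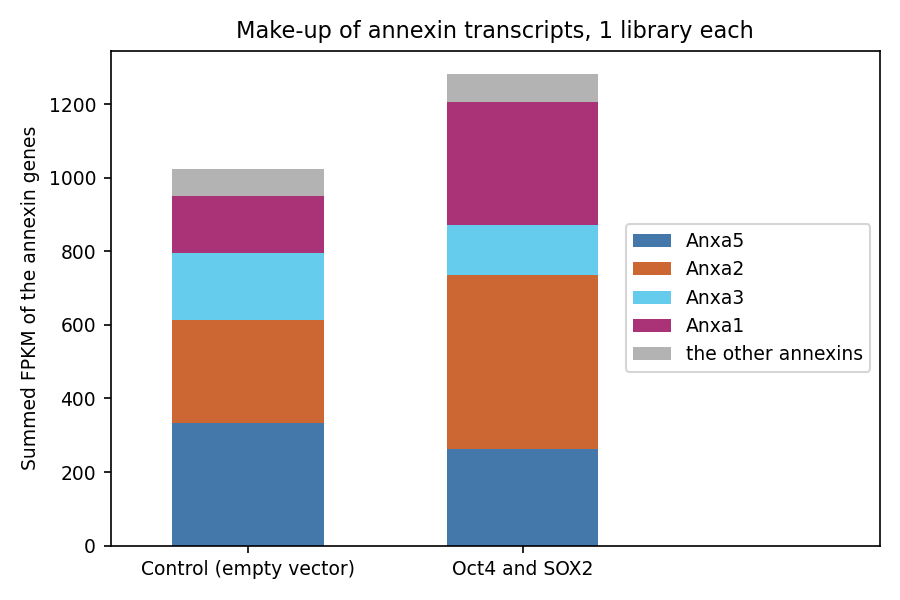
Summed FPKM of the 12 annexin genes in each library, stacked by gene. The Anxa2 and Anxa1 blocks make up 42.6% of the control bar and 63.2% of the Oct4/SOX2 bar, and the bar totals are 1023 and 1281 FPKM.

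Within their principal transcripts, reads on the members could mostly be told apart. Among the 45 pairs of members the longest stretch of identical sequence in their principal transcripts was 18 bases. For 8 members no run of 50 bases of the principal transcript was found in a transcript of any other gene in GENCODE M21. Bases outside that transcript were not searched: for Anxa2 it has 1447 bases, beside a deposited gene length of 3731. The exceptions were Anxa4, with 1.49% of its runs shared with the overlapping gene Gm44036, and Anxa11, with 28.9% shared, mostly with the pseudogenes Gm2260 and Gm2274. Gm2260 had 2 and 5 reads and Gm2274 had 0 in both libraries, and the treatment of reads that match more than 1 place is unknown, so the Anxa11 level is uncertain. The antisense gene Gm16144, which overlaps Anxa2 on the opposite strand, had 31 reads in empty-vector cells and 72 in Oct4/SOX2 cells. Without a stated strand setting these cannot be told from Anxa2 reads, but they are few beside the 33286 and 56416 reads of Anxa2.

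Promoter sequences from RefSeq on GRCm38.p6, from 250 bases before to 50 bases after the start of the gene, were held for 7 of the 10 members in 9 windows. They were searched on both strands for 8 motifs. These were TGANTCA (AP-1), ATGCAAAT (the octamer), CATTGT (a SOX core), TATAAA (the TATA box), TGACGTCA (cAMP response element), GCGCGAAA (E2F), ACANNNTGT (paired glucocorticoid half-sites) and the CArG box of the serum response element. No pair of these matches overlapped in a member's window. Anxa3, Anxa6 and S100a10 were not searched. TATAAA was found in Anxa1 and Anxa2 and in no other of the windows searched, and 13.6% of all 32851 windows hold it. The 2 of 9 windows with it are too few to set apart from that share. Anxa7, which was also higher in Oct4/SOX2 cells, did not hold it. The matches are shown because these are the annexins with the greatest upward differences, with the motif in capitals.
Anxa1, chr19:20390686-20390715, minus strand: cagttcatatccTATAAAatcaggagtcca
Anxa2, chr9:69453654-69453683, plus strand: ggatggggcgggTATAAAagccccacccag

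In Anxa1 the motif began 32 bases before the RefSeq start and in Anxa2 17 bases before it. Both stretches lie inside a first exon of a longer transcript in GENCODE M21. TGANTCA was found in 1 of the 9 member windows, from Anxa2, and in 7.81% of all windows. The 187 bases before the first annotated Anxa2 exon in GENCODE M21 hold it, here in capitals.
Anxa2, chr9:69453433-69453619, plus strand: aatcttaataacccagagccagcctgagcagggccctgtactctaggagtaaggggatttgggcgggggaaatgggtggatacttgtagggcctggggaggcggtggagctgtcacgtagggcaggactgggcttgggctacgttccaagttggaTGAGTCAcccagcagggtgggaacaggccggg

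The octamer ATGCAAAT, the motif that POU factors such as Oct4 bind, was in none of the 9 windows and in 1.74% of all windows. CATTGT was in the Anxa11 window and in 12.6% of all windows. The paired glucocorticoid half-sites were found in Anxa4 and in 6.85% of all windows. The CArG box was found in Anxa5 and in 1.63% of all windows. TGACGTCA and GCGCGAAA were in no member's window, and in 1.79% and 0.323% of all windows. A match in these windows is a description of sequence and not of binding.

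The other S100 genes were compared next, since several are partners of annexins. Of 16 listed, 15 were in the table and 7 were measured. Of these, 5 were above 0 (48.3% of all genes), too few genes to set apart from that share. Their median log2 ratio was 0.21 (all genes, -0.01). None of the 7 was 2-fold different (all genes, 2.42% higher and 1.85% lower). S100a11, the partner of annexin A1, stood at 649 FPKM in empty-vector cells and at 1035 FPKM in Oct4/SOX2 cells, 1.60-fold higher (1.56 to 1.63). S100a6, or calcyclin, a partner of annexin A11, stood at 413 and 400 FPKM. The calgranulin gene S100a9 had 0 reads in both libraries, and S100a8 had 1 read in empty-vector cells and 0 in Oct4/SOX2 cells. Among the annexins that are not members, Anxa9 was measured, at 3.28 and 4.89 FPKM, 1.49-fold higher (1.25 to 1.78), and Anxa10 and Anxa13 stayed under 1 FPKM.

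The FPKM of S100a11 was above that of Anxa1 in both libraries. The ratio of the S100a11 level to the Anxa1 level was 4.16 (4.05 to 4.26) in empty-vector cells and 3.09 (3.03 to 3.15) in Oct4/SOX2 cells. It was 2.67 and 1.98 by principal transcript length, and the plain read ratios were 0.814 and 0.606. S100a11 was chosen by its level in its list and is also the nearest measured protein-coding gene to S100a10, with a gap of 28793 bases on chromosome 3. The ratio of the S100a10 level to the S100a11 level was 0.291 (0.282 to 0.299) and 0.271 (0.265 to 0.278).

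Of 15 annexin binding partners, 10 were measured and none was 2-fold different, with 4 above 0, 6 below and a median of -0.07. S100a4, S100a6 and S100a11 from the S100 list are among the 15. For all genes measured the shares were 2.42% higher, 1.85% lower and 48.3% above 0, with a median of -0.01. Sri, chosen after its value was seen, stood at 49.4 FPKM in empty-vector cells and at 67.4 FPKM in Oct4/SOX2 cells. It was 1.36-fold higher (1.32 to 1.41). Ahnak, a giant scaffold protein that the annexin A2 and S100a10 complex binds, was also chosen after its value was seen. It stood at 191 and 143 FPKM, 1.34-fold lower (1.33 to 1.35), against the direction of Anxa2 and S100a10.

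The genes of plasminogen activation and of plasminogen binding at the cell surface stayed mostly within 2-fold. Of 12 listed, 7 were measured, 1 was at least 2-fold higher and none lower, with 2 above 0, 5 below and a median of -0.10. Over all genes measured 2.42% were 2-fold higher, 1.85% lower and 48.3% above 0, with a median of -0.01. The 7 genes are too few to set their counts apart from these shares. The gene past 2-fold was Serpinb2, for a plasminogen activator inhibitor, with 0.213 FPKM in empty-vector cells and 15.2 FPKM in Oct4/SOX2 cells. The enzyme genes were low. Plat, for tissue plasminogen activator and chosen after its value was seen, stood at 2.03 and 0.940 FPKM, 2.16-fold lower in plain FPKM (1.81 to 2.58) and -0.64 on the log2 scale of FPKM + 1. Plau had 0 and 2 reads, and Plg had 2 reads in each library.

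Annexin A1 is known to act outside the cell on formyl peptide receptors and inside it on phospholipase A2. None of the 7 formyl peptide receptor genes was measured, and the highest had 13 reads in empty-vector cells and 6 in Oct4/SOX2 cells. Of 17 phospholipase A2 and prostaglandin genes 11 were measured and none passed 2-fold, with 4 above 0, 7 below and a median of -0.22. Among all genes measured 2.42% were 2-fold higher, 1.85% lower and 48.3% above 0, with a median of -0.01. Ptgs2, for cyclooxygenase 2, stood at 134 FPKM in empty-vector cells and at 86.2 FPKM in Oct4/SOX2 cells, 1.55-fold lower (1.52 to 1.59). Ptges3, a prostaglandin synthase and cochaperone gene, stood at 96.6 and 88.9 FPKM. Pla2g4a, for the cytosolic phospholipase A2, was chosen after its value was seen and stood at 27.4 and 16.6 FPKM, 1.65-fold lower (1.58 to 1.73).

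Of 16 genes of the glucocorticoid response, of which Anxa1 is a classical member, 15 were measured, 1 at least 2-fold higher and 1 at least 2-fold lower (all genes, 2.42% and 1.85%), with a median of 0.11 (all genes, -0.01). Cebpd, a transcription factor gene, stood at 4.23 FPKM in empty-vector cells and at 13.6 FPKM in Oct4/SOX2 cells, 3.21-fold higher (2.90 to 3.55). Ddit4, a stress-induced inhibitor of growth signalling, stood at 48.8 and 20.2 FPKM, 2.42-fold lower (2.26 to 2.60).

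Annexins also help to seal torn membranes. Of 19 membrane repair and ESCRT-III genes 18 were measured and none passed 2-fold (all genes, 2.42% higher and 1.85% lower), with a median of -0.08. Its most expressed genes were Cav1, for caveolin 1, at 204 and 220 FPKM, and Capns1, for the small calpain subunit, at 153 and 179 FPKM. Of 9 genes that move phosphatidylserine across the membrane, the lipid annexin A5 binds, 8 were measured and none passed 2-fold, with 5 above 0 (48.3% of all genes) and a median of 0.29 (all genes, -0.01). Tmem30a, the subunit that flippases need, stood at 23.9 FPKM in empty-vector cells and at 43.2 FPKM in Oct4/SOX2 cells, 1.81-fold higher (1.74 to 1.88), while the flippase gene Atp11a stood at 20.1 and 19.9 FPKM.

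**Figure D5:**
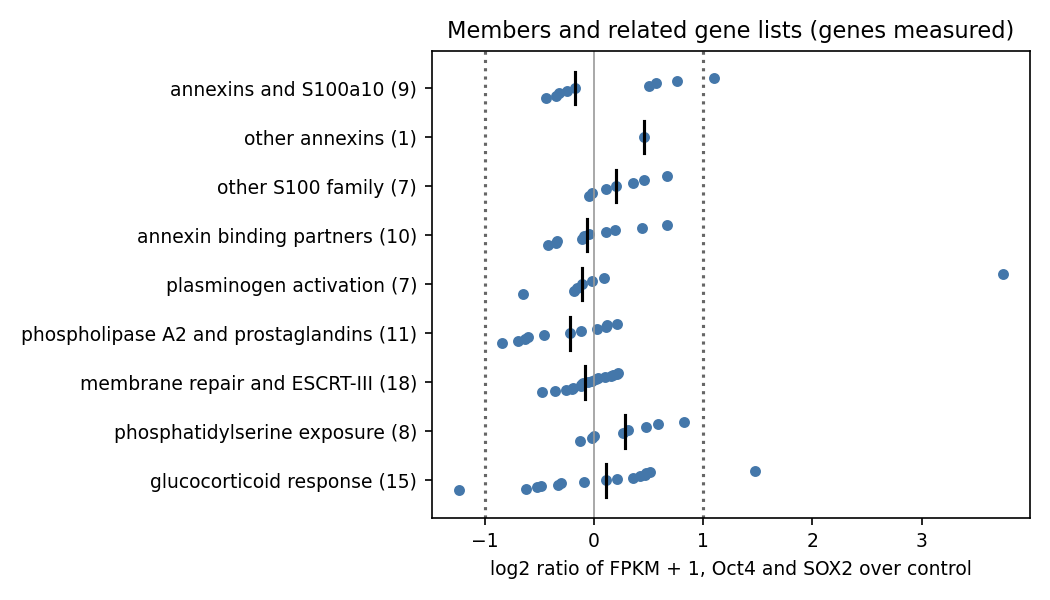
Log2 ratio of FPKM + 1, Oct4 and SOX2 over control, for each measured gene of the members and of the related lists (number measured in parentheses). Black bars are medians and dotted lines are 2-fold either way. Serpinb2, Cebpd and Anxa1 lie past the upper line and Ddit4 past the lower one.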

How the data were processed

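RNA was sequenced from 1 library of CT26 cells with Oct4 and SOX2 and 1 library with the empty vector. The authors deposited an FPKM table, in which fragments are divided by gene length in kilobases and by a library scale, together with each gene's length and position. Per the submitters' processing notes, CASAVA, HISAT2, featureCounts 1.5.0-p3 and the build GRCm38 were used. Not given in the sources used here are the FPKM formula, the annotation release, the strand setting and the counting of reads with several matches.

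When multiplied by gene length, 100% of the FPKM values of each library were whole multiples of a single step, within 0.001 of a read, which gave back the read numbers. With 1 library per group no test across samples was possible. A gene counted as measured at 1 FPKM or more in at least 1 library, and as different at 2-fold or more on the log2 ratio of FPKM + 1, which understates differences of low genes. Printed folds are ratios of FPKM without a pseudocount, with exact 95% conditional binomial (Clopper-Pearson) intervals from the recovered reads. These reflect counting error alone: PCR duplicates and variation between cultures are not in them. The calculation was tested on simulated Poisson counts, for which such intervals hold by construction, so that test checked the code alone.

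The members and the related gene lists were chosen with earlier results of these data known. Named were all members, Pou5f1 and Sox2 and, from each list, up to 2 genes per direction past 2-fold or else its 2 most expressed. Other genes named, among them markers, neighbours, S100a8, S100a9, Plau and Plg, were chosen after their values were seen. Alternatives were other pseudocounts, filters, scalings and gene lengths. Software was Python 3.11.15 with numpy 2.4.6, pandas 2.3.3, scipy 1.17.1 and matplotlib 3.10.9. GENCODE M21 on GRCm38 gave transcript structure and coding sequence, and all 10 members had the same coordinates there. RefSeq (GRCm38.p6) gave promoter sequence.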

Additional observations from a re-analysis of the deposited data

How the results depend on the processing

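The count of members at least 2-fold higher stayed at 1, Anxa1, and the count lower at 0, under all 9 alternatives: pseudocounts of 0.1 and 5 FPKM, no filter, filters of 5 and 100 FPKM, ratios centred on their median, levels rescaled with the 50 highest genes left out, scaling by recovered read totals, and protein-coding genes alone. The filter of 100 FPKM was chosen after the data were seen. The Anxa1 log2 ratio ranged from 1.08 to 1.13, and no measured member's ratio turned sign. Filters and the limit to protein-coding genes leave each ratio as it is, and Anxa1 was above every filter. These settings could therefore not change the counts of members past 2-fold. A pseudocount cannot turn a sign, so only the centring and the scalings could have done so. The members' median turned from -0.17 to 0.17 with a filter of 5 FPKM, which leaves out Anxa11. Of all 12401 genes measured, 300 were at least 2-fold higher and 230 lower. These counts were 520 and 459 with a pseudocount of 0.1, and 75 and 56 with 5. They were 145 and 121 of 8235 genes with a filter of 5 FPKM, and 143 and 110 of 10276 protein-coding genes. With the filter of 100 FPKM they were 8 and 15 of 479 genes. With a pseudocount of 0.1, 2 glucocorticoid response genes and 1 plasminogen gene were at least 2-fold lower, against 1 and 0. The ratio of S100a10 to Anxa2 was 0.219 in empty-vector cells and 0.192 in Oct4/SOX2 cells from reads not divided by length, and 0.463 and 0.406 by principal transcript length, which was chosen after the data were seen. By that length Anxa1 and Anxa2 held 52.1% and 71.1% of the annexin level, against 42.6% and 63.2%. No paired analysis was possible because each group holds 1 library. Depth limits the low members such as Anxa6, since 3 reads on 1 kb equal 0.0940 and 0.0942 FPKM.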

Other observations

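The genes beside the members were looked at as well, taking measured protein-coding genes within 250 kb. Anxa1 had no such neighbour. Anxa2 had 1, the elongation complex gene Ice2, at 2.77 FPKM in empty-vector cells and 2.32 FPKM in Oct4/SOX2 cells. Of the 14 neighbours of Anxa7, 5 had a log2 ratio above 0 and 9 below (all genes measured, 48.3% and 51.7%). These are too few genes to set apart from those shares. The neighbours' median was -0.03, beside 0.51 for Anxa7 itself. The neighbour of Anxa7 past 2-fold on the log2 ratio of FPKM + 1 was Synpo2l, a muscle actin-binding protein gene, at 0.332 and 2.66 FPKM, 8.03-fold higher (counting interval 5.96 to 11.05). Near Anxa3, Paqr3, for a Golgi membrane protein, stood at 4.71 and 1.90 FPKM, a plain ratio of 0.403 (0.361 to 0.450) and -0.98 on the log2 scale of FPKM + 1. Near Anxa5, the cyclin gene Ccna2 stood at 22.0 and 33.1 FPKM, 1.51-fold higher (1.44 to 1.58), while Anxa5 was lower. These neighbours were chosen after their values were seen.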
